A study of Mus musculus with 10 samples.

Results

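The genes described here are 8 immediate early factors (Fos, Fosl1, Jun, Junb, Jund, Egr1, Ier2 and Maff) and the 2 Myc genes Myc and Mycn. They were taken by symbol from the gene tables of all 10 libraries, and all 10 were found among the 24411 genes listed. The study used antisense oligonucleotides (ASO) against Mettl3, the catalytic subunit of the complex that places N6-methyladenosine on mRNA, in mouse preimplantation embryos. The Mettl3-ASO group was 5 libraries of embryos made by in vitro fertilization, injected 3 to 6 h after insemination with the oligonucleotide against Mettl3, and collected at 72 h as morulae. The ASO-Control group was 5 libraries of embryos handled in the same way, injected with an oligonucleotide that has no target. Every library pooled 10 morulae, so a value is a mean over embryos, and within such a pool fewer cells of a type and less RNA per cell cannot be told apart. In each group, replicates 3 to 5 are labelled batch 2, while replicates 1 and 2 have no batch label, are labelled as ICR mice, and are called untagged below. Nothing in the labels ties libraries to separate fertilizations, and p-values therefore rest on a spread between libraries that could be technical.

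Immediate early genes are switched on within minutes of a signal, without new protein synthesis, mostly through serum response factor with its ternary complex partners and through CREB family factors that MAP kinases phosphorylate. Fos and Jun proteins pair through leucine zippers to form AP-1, Egr1 is a zinc finger activator, Maff is a small Maf protein that lacks an activation domain and binds DNA in pairs, often with Nfe2l2 or Bach1, and Ier2 is a short nuclear protein of the same early wave. Myc and Mycn are basic helix-loop-helix factors that pair with Max on E-boxes and raise genes of ribosome building, nucleotide and polyamine synthesis. Myc is among the genes that mouse preimplantation embryos transcribe. The mRNAs of this class are short-lived, and many carry AU-rich elements, runs of ATTTA in DNA letters, behind the stop codon. The m6A mark sits mostly in a short consensus of which GGACT is the best known form.

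The letters of these mRNAs are shown first for the features that shorten mRNA life or that can be methylated. ATTTA was counted downstream of the stop codon, and GGACT along the whole transcript, in GENCODE transcripts of mouse build GRCm38, for each gene the coding transcript with the longest stretch behind the stop codon. All 10 members matched, as did 18404 genes in all. ATTTA stood downstream of the stop codon in 9 of the 10 members (90.0%), against 63.2% of all matched genes. At least 3 copies stood in 3 of 10 members, against 32.3% of all matched genes. Fos, Jun and Maff held 4 copies each, Junb, Egr1 and Myc 2 each, and Fosl1, Jund and Mycn 1 each. Ier2 had none. The sites below are 30-base windows, 5′ to 3′ on the transcript's strand, around the densest ATTTA of 4 members, with ATTTA in capitals.
Fos (chr12:85477100-85477129, plus strand): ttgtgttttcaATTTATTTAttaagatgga
Jun (chr4:95049207-95049236, minus strand): atcATTTAtaatcataggaaagATTTAgta
Myc (chr15:61990134-61990163, plus strand): ttaacagatttgtATTTAattgttttttta
Maff (chr15:79358894-79358923, plus strand): aaatcacATTTAatcttatATTTAgggaga
The Fos window holds 2 overlapping copies, the Jun and Maff windows hold 2 separate copies, and the Myc window holds 1.

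GGACT was densest in Ier2, with 5 copies or 3.29 per kb, a density reached by 1.58% of matched genes. Myc followed with 6 copies or 2.57 per kb, reached by 5.01% of genes, and Jund had 2.40 and Jun 2.20 per kb. The Jund transcript searched had 1668 bases, whereas the authors' Jund values rest on a length of 2878 bases. Fosl1 had no copy. The median over the 10 members was 1.78 per kb, against 1.04 per kb over all matched genes. At least 1 copy stood in 90.0% of members and in 89.3% of all matched genes. Of the 5 copies in Ier2, 4 lay downstream of the stop codon, against 1 of the 6 copies in Myc. Sites are shown for these 2 mRNAs, whose levels moved in opposite directions between the groups, with GGACT in capitals.
Ier2 (chr8:84662336-84662365, minus strand): cggtagtgatgccGGACTggtaccaagcaa
Myc (chr15:61985801-61985830, plus strand): gcgagccaggacaGGACTccccaggctccg
Both windows lie upstream of the stop codon. These matches are descriptions of the sequence, and no methylation was measured in the data used here.

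Promoter windows from RefSeq, 250 bases before to 50 after a transcription start on GRCm38.p6, were present for 6 of the 10 members in 8 windows. The letters TGACG, the core of a CREB or ATF site, were searched on both strands and were found in 20.8% of the 32851 windows of all genes. The TATA box letters TATAAA, searched in the same way, were in 13.6% of them. Fos had TGACG at 2 positions and TATAAA at 1, and Junb had each once. The windows of Jun, Jund, Mycn and the first start of Maff held neither, and the third start of Maff held TGACG at 1 position. The window at the second start of Maff held the whole palindrome TGACGTCA, which 1.79% of all windows held and which contains TGACG once on each strand; this window also held the E-box CACGTG, as did 7.15% of all windows. No member's window matched the serum response element, found in 1.63% of all windows, which says only that its letters were not in these windows. The 3 promoters that held most of these matches are given 5′ to 3′ on the gene's strand, with TGACG, TGACGTCA and TATAAA in capitals.
Fos (chr12:85473640-85473939, plus strand): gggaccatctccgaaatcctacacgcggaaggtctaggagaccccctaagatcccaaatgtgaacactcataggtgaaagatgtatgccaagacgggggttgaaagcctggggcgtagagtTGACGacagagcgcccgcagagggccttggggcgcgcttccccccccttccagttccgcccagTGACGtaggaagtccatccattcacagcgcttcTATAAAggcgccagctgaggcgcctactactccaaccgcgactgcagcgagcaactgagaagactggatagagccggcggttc
Junb (chr8:84978699-84978998, minus strand): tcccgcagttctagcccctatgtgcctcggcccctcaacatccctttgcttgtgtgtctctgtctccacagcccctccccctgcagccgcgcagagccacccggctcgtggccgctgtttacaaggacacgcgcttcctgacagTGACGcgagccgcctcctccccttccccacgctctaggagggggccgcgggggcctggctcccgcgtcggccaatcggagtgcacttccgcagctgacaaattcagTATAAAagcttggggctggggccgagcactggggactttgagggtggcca
Maff, second start (chr15:79347270-79347569, plus strand): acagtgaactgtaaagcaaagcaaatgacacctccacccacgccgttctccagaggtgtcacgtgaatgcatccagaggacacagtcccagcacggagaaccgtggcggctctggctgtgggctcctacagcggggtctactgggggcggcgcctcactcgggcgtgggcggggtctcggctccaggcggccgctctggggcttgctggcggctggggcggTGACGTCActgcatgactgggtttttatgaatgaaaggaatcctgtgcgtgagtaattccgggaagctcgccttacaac

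The libraries were checked before the members were compared. Depth, as total expected counts, was 21412857 to 32327283 in libraries of batch 2 and 9905830 to 13530284 in untagged ones, so low members are measured more finely in batch 2. Mettl3 itself stood at 0 to 0.04 FPKM in the Mettl3-ASO libraries and at 6.58 to 12.7 FPKM in the ASO-Control libraries. FPKM is the number of fragments per kb of transcript, scaled to the size of the library, so it can be compared between genes of different length. Of 10 morula markers, all reached 1 FPKM in some library and 8 did so in every library, with a sum of 363 to 921 FPKM in Mettl3-ASO and 275 to 616 FPKM in ASO-Control libraries. The highest sum was in Mettl3-ASO replicate 1, which also stands apart below. Within that list Gata3, an early trophectoderm factor, had 1.52 to 15.8 FPKM in Mettl3-ASO and 10.8 to 30.1 FPKM in ASO-Control libraries. Nanog, a factor of pluripotent cells, had 136 to 454 FPKM in Mettl3-ASO and 48.2 to 141 FPKM in ASO-Control libraries. These genes were singled out, and the list did not move as one. In the edgeR test described below, Pou5f1, also a factor of pluripotent cells, fell by 0.64 on the log2 scale (SE 0.15, edgeR adjusted p = 0.0033). Tfap2c (-0.16) and Tead4 (0.17) did not pass that test. Sall4 rose, Cdx2 and Klf5 fell, and Cdh1 did not pass. Of 14 markers of cumulus and granulosa cells, 13 stayed under 1 FPKM in every library and Has2, Ptgs2, Amh, Lhcgr and Inhba were at 0 in all 10. The sum of the 14, most of it Amhr2, was 2.82 to 7.31 FPKM in Mettl3-ASO and 1.79 to 4.32 FPKM in ASO-Control libraries. The part that either marker list has in the results below was not tested.

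Levels of the 10 members spanned a wide range in both groups. In Mettl3-ASO morulae the order of mean FPKM was Jund (17.0), Myc (12.6), Ier2 (5.79), Jun (1.60), Maff (1.25), Junb (1.15), Mycn (1.12), Fos (0.55), Fosl1 (0.45) and Egr1 (0.15). In ASO-Control morulae it was Jund (12.2), Ier2 (9.80), Myc (3.67), Jun (1.41), Mycn (1.28), Junb (0.76), Fos (0.72), Fosl1 (0.50), Maff (0.36) and Egr1 (0.046). Myc and Ier2 thus stood in opposite order in the 2 groups, and Maff was at place 5 in Mettl3-ASO and place 9 in ASO-Control morulae. Among neighbours in these orders, the ranges over the 5 libraries did not overlap between Myc and Ier2 and between Ier2 and Jun in Mettl3-ASO, and between Ier2 and Myc in ASO-Control. All other neighbours overlapped. The best known AP-1 subunit genes, Fos and Jun, were thus low in these morulae, and Jund, the Jun gene that most cells express without a stimulus, held most of the summed level of the family.

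Jun, Jund, Ier2, Myc and Mycn reached a mean of 1 FPKM over the 10 libraries and entered the test with 9522 genes in all. Of these 5 members, Myc was higher and Ier2 lower in Mettl3-ASO than in ASO-Control morulae, and Jun, Jund and Mycn did not pass. The test was edgeR's quasi-likelihood test with batch in the model and a Benjamini-Hochberg adjusted p under 0.05. It called 49.4% of all tested genes, 25.4% higher and 24.0% lower in Mettl3-ASO, so 2 of 5 is close to the share among all genes. The median log2 fold change was 0.22 over the 5 tested members and 0.0094 over all tested genes. With no filter on low values, all 10 members could be tested and 3 were called, Myc, Ier2 and Maff, where 30.2% of all 19442 genes were called.

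**Figure D1:**
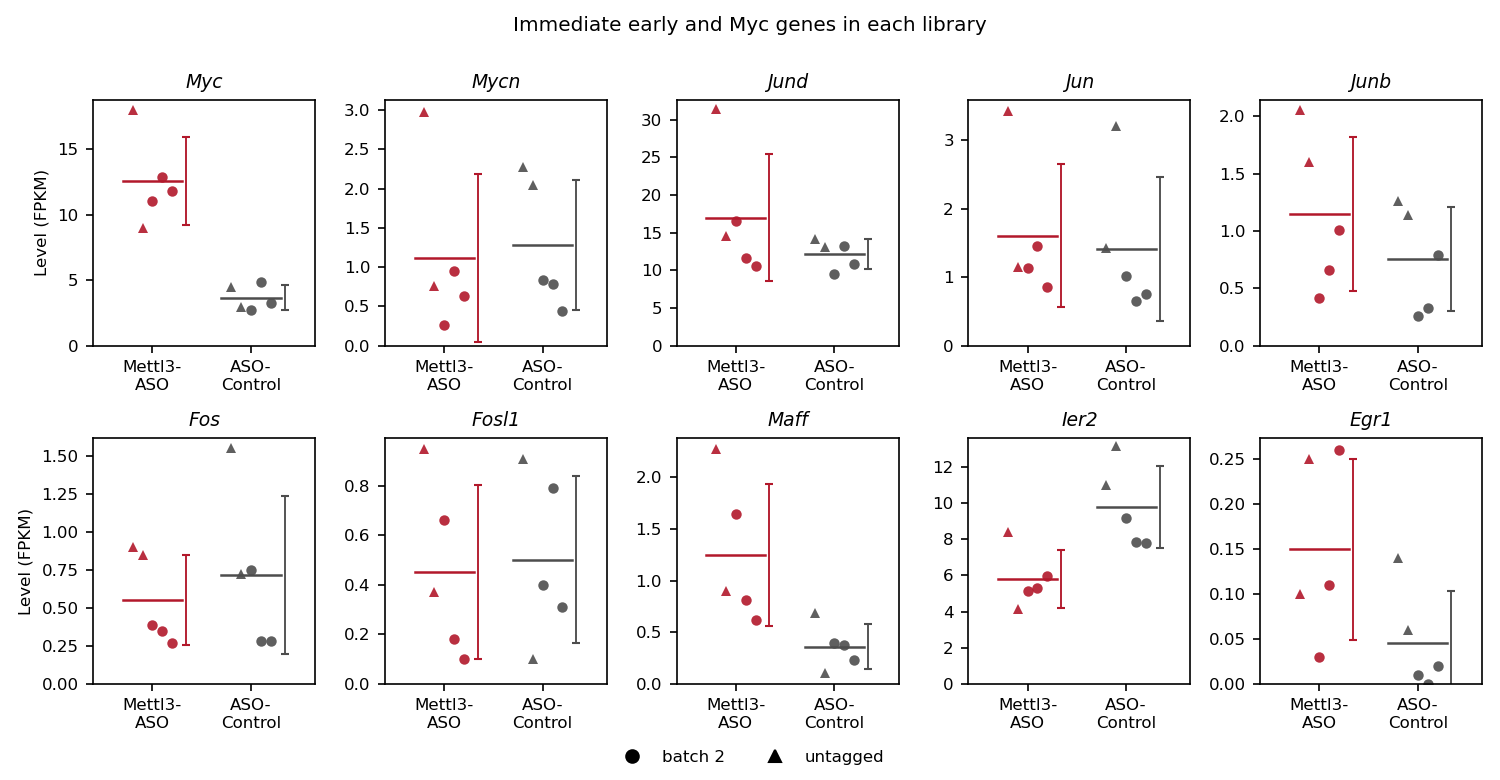
Level in FPKM (vertical axes, each from 0) of the 10 members in each library, Mettl3-ASO left and ASO-Control right in every panel; circles are batch 2, triangles untagged libraries, horizontal lines the mean of 5 libraries and bars its SD. Myc points of the 2 groups do not overlap (9.01 to 18.01 against 2.75 to 4.88 FPKM), and the triangle of Mettl3-ASO replicate 1 is the highest of its group in the panels of Myc, Mycn, Jund, Jun, Junb, Fos, Fosl1, Maff and Ier2.

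Myc (chr15:61985341-61990361, GRCm38.p6) had the largest difference among the 5 members that entered the filtered test. It had 18.01, 9.01, 11.1, 12.9 and 11.9 FPKM in Mettl3-ASO replicates 1 to 5, against 4.50, 2.97, 2.75, 4.88 and 3.27 FPKM in ASO-Control replicates 1 to 5. Every Mettl3-ASO library lay above every ASO-Control library, a separation in that direction shown by 15.0% of tested genes. Expected counts behind these values were 196 to 734 in Mettl3-ASO libraries and 77 to 339 in ASO-Control libraries. The mean was 12.6 ± 3.36 FPKM in Mettl3-ASO and 3.67 ± 0.955 FPKM in ASO-Control libraries (SD, n = 5 each). The log2 fold change was 1.72 ± 0.21 (SE), or 3.29-fold, with an adjusted p of 4.3e-05 by edgeR. Of the 9522 tested genes, 619 had a log2 fold change at least as high.

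Myc was higher in Mettl3-ASO in both batches. Within batch 2 the log2 fold change was 1.69 ± 0.25 (SE; edgeR adjusted p = 0.0007), where 39.0% of tested genes were called. Within the 4 untagged libraries it was 1.78 ± 0.41 (SE; edgeR adjusted p = 0.052), where 6.26% of genes were called. With the replicate number as a block, the untagged value was 1.76 ± 0.36 (SE) with an edgeR adjusted p of 6.4e-05, in a fit that called 27.4% of genes. Few degrees of freedom remain in that blocked fit of 4 libraries, so its p rests largely on a spread estimated across genes. The term for a difference between batches in the effect was -0.11 ± 0.45 for Myc (SE; edgeR adjusted p = 1). Without Mettl3-ASO replicate 1, the library with the highest Myc, the log2 fold change was 1.59 (edgeR adjusted p = 7.3e-05).

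Mycn (chr12:12936093-12941836), the paralog that early embryonic and neural tissue also uses, did not pass the test. It had 2.98, 0.76, 0.26, 0.95 and 0.63 FPKM in Mettl3-ASO replicates 1 to 5, against 2.28, 2.05, 0.84, 0.78 and 0.44 FPKM in ASO-Control replicates 1 to 5. The groups overlapped throughout, and the highest library was again Mettl3-ASO replicate 1. The log2 fold change was -0.25 ± 0.42 (SE; edgeR adjusted p = 0.64), with an interval of 2 SE to each side running between -1.08 and 0.58. Without Mettl3-ASO replicate 1 the value was -0.54 (edgeR adjusted p = 0.35). The 3 highest untagged libraries, 1 of Mettl3-ASO and 2 of ASO-Control, lay above all of batch 2.

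Summed over both Myc genes, the level was 9.77 to 20.99 FPKM in Mettl3-ASO and 3.59 to 6.78 FPKM in ASO-Control libraries. Bmyc, a rodent relative of Myc that lacks the DNA-binding part and was singled out after its values were seen, had 98.5 ± 45.1 FPKM in Mettl3-ASO and 175 ± 45.2 FPKM in ASO-Control libraries (SD, n = 5 each). It fell, with a log2 fold change of -0.89 ± 0.27 (SE; edgeR adjusted p = 0.015).

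Ier2 (chr8:84661331-84662852) was the member that fell. It had 8.43, 4.13, 5.16, 5.28 and 5.96 FPKM in Mettl3-ASO replicates 1 to 5, against 11.03, 13.2, 9.18, 7.85 and 7.79 FPKM in ASO-Control replicates 1 to 5. The ranges overlapped through Mettl3-ASO replicate 1 alone, and within each batch every Mettl3-ASO library lay below every ASO-Control library. Such a separation downward was shown by 24.1% of tested genes within batch 2 and by 26.1% within the untagged libraries. The mean was 5.79 ± 1.61 FPKM in Mettl3-ASO and 9.80 ± 2.29 FPKM in ASO-Control libraries (SD, n = 5 each). The log2 fold change was -0.79 ± 0.20 (SE), or 1.73-fold lower, with an adjusted p of 0.0059 by edgeR, and 1306 of 9522 genes had a log2 fold change at least as low.

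Without the replicate number as a block, the Ier2 call did not hold in either batch taken alone. Within batch 2 the log2 fold change was -0.63 ± 0.24 (SE; edgeR adjusted p = 0.060), and within the untagged libraries it was -1.02 ± 0.41 (SE; edgeR adjusted p = 0.17). With the replicate number as a block, the untagged value was -1.05 ± 0.40 (SE) with an edgeR adjusted p of 0.042. Few degrees of freedom remain in that blocked fit, as for Myc. The blocked value within batch 2 was -0.63 ± 0.24 (SE) with an edgeR adjusted p of 0.061, again not called. The term for a difference between batches was 0.37 ± 0.42 (SE; edgeR adjusted p = 1). Without Mettl3-ASO replicate 1 the pooled log2 fold change was -0.86 (edgeR adjusted p = 0.0068).

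**Figure D2:**
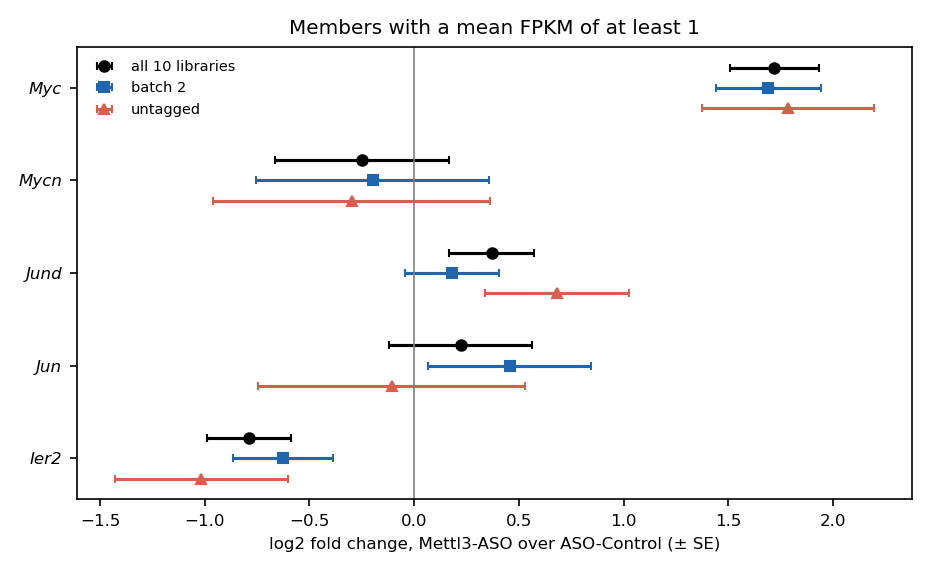
Log2 fold change of Mettl3-ASO over ASO-Control (horizontal axis) with its SE for the 5 tested members, fitted over all 10 libraries (black circles), within batch 2 (blue squares) and within the untagged libraries (red triangles). Myc lies between 1.69 and 1.78 in the 3 fits and Ier2 between -1.02 and -0.63, while Jun changes side between the batches, at 0.46 in batch 2 and -0.11 in the untagged libraries.

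Among the Jun genes, Jund and Jun did not pass the test, and Junb was below the filter. Jund (chr8:70697739-70700616) had 31.5, 14.6, 16.6, 11.7 and 10.6 FPKM in Mettl3-ASO replicates 1 to 5, against 14.2, 13.1, 9.49, 13.3 and 10.9 FPKM in ASO-Control replicates 1 to 5. Replicate 1 of Mettl3-ASO stood far above the others, which overlapped the ASO-Control libraries. The log2 fold change was 0.37 ± 0.20 (SE; edgeR adjusted p = 0.15), and without Mettl3-ASO replicate 1 it was 0.17 (edgeR adjusted p = 0.41). Within the untagged libraries it was 0.68 ± 0.34 (SE; edgeR adjusted p = 0.25) and within batch 2 it was 0.18 ± 0.22 (SE; edgeR adjusted p = 0.56).

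Jun (chr4:95049036-95052222), the archetypal AP-1 subunit, had 3.43, 1.15, 1.13, 1.45 and 0.85 FPKM in Mettl3-ASO replicates 1 to 5, against 1.43, 3.21, 1.02, 0.65 and 0.76 FPKM in ASO-Control replicates 1 to 5. The 2 high libraries, Mettl3-ASO replicate 1 and ASO-Control replicate 2, were both untagged and belonged to different groups. The log2 fold change was 0.22 ± 0.34 (SE; edgeR adjusted p = 0.61), with an interval of 2 SE to each side running between -0.46 and 0.91. Within batch 2 it was 0.46 ± 0.39 (SE; edgeR adjusted p = 0.38), and within the untagged libraries it was -0.11 ± 0.64 (SE; edgeR adjusted p = 0.93).

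Junb (chr8:84976909-84978748), the Jun protein that often dampens Jun, had 2.05, 1.60, 0.42, 0.66 and 1.01 FPKM in Mettl3-ASO replicates 1 to 5, against 1.26, 1.14, 0.26, 0.33 and 0.79 FPKM in ASO-Control replicates 1 to 5. Over both groups, Junb had 0.26 to 1.01 FPKM in batch 2 and 1.14 to 2.05 FPKM in the untagged libraries. How many of all genes separate the batches in this way was not counted. Between the groups, the mean difference within batches was 0.43 FPKM higher in Mettl3-ASO, with a two-sided exact permutation p of 0.067. For Junb and the other members under 1 FPKM on average, libraries were relabelled within each batch, in 120 ways, so that no p can be lower than 0.0167. Junb was higher in Mettl3-ASO in all 5 pairs of libraries that share a replicate number. How many of all genes were higher in all 5 pairs was not counted. Exchanging labels within pairs, a test chosen after seeing the data, gave an exact permutation p of 0.0625, the smallest that 32 such exchanges allow.

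Maff (chr15:79346621-79359078) was the low member with the clearest separation. It had 2.27, 0.90, 1.64, 0.81 and 0.62 FPKM in Mettl3-ASO replicates 1 to 5, against 0.69, 0.10, 0.40, 0.38 and 0.23 FPKM in ASO-Control replicates 1 to 5. Within each batch every Mettl3-ASO library was higher than every ASO-Control library. This held for 27.6% of tested genes in batch 2 and for 32.5% in the untagged libraries. Maff, below the filter, is not among those genes. The overall ranges overlapped between Mettl3-ASO replicate 5 and ASO-Control replicate 1. The mean was 1.25 ± 0.69 FPKM in Mettl3-ASO and 0.36 ± 0.22 FPKM in ASO-Control libraries (SD, n = 5 each), and the exact permutation p was 0.0167, the smallest the design allows. In the edgeR test with no filter, the log2 fold change of Maff was 1.62 ± 0.55 (SE) and the adjusted p was 0.014.

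The Maff call rested on few reads, with expected counts of 15 to 75 in Mettl3-ASO libraries and 2 to 21 in ASO-Control libraries. Without Mettl3-ASO replicate 1 the edgeR adjusted p was 0.070. Without Mettl3-ASO replicate 3 the edgeR adjusted p was 0.088, and without ASO-Control replicate 2 it was 0.074. In the permutation test, where fewer relabellings remain, the exact p was 0.067 without Mettl3-ASO replicate 1, 0.10 without ASO-Control replicate 1 and 0.18 without ASO-Control replicate 2. Maff was higher in Mettl3-ASO in 5 of 5 same-numbered pairs, a count whose share over all genes was not taken. Exchanging labels within pairs gave an exact permutation p of 0.0625, the smallest possible there. Left out alone, none of the 10 libraries turned the direction.

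Fos (chr12:85473890-85477274), the founding immediate early gene, stayed below 1 FPKM in 9 of the 10 libraries. It had 0.90, 0.85, 0.39, 0.35 and 0.27 FPKM in Mettl3-ASO replicates 1 to 5, against 1.55, 0.72, 0.75, 0.28 and 0.28 FPKM in ASO-Control replicates 1 to 5. The groups overlapped in both batches, and the mean difference was -0.18 FPKM (exact permutation p = 0.47). Without ASO-Control replicate 1, the highest library, the difference was 0.028 FPKM.

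Egr1 had 0.10, 0.25, 0.03, 0.11 and 0.26 FPKM in Mettl3-ASO replicates 1 to 5, against 0.14, 0.06, 0.01, 0 and 0.02 FPKM in ASO-Control replicates 1 to 5. These levels come from 2 to 16 counts in each Mettl3-ASO library and 0 to 5 counts in each ASO-Control library. In batch 2 the 3 Mettl3-ASO libraries were above the 3 ASO-Control libraries, as for 27.6% of tested genes, and the untagged libraries overlapped. Egr1, like Maff, was below the filter and is not among those genes. The exact permutation p was 0.083, which did not pass. In the edgeR test with no filter, the log2 fold change of Egr1 was 2.16 ± 1.19 (SE) and the adjusted p was 0.17. Left out alone, 2 libraries changed this: the exact permutation p was 0.017 without Mettl3-ASO replicate 1 and 0.033 without Mettl3-ASO replicate 3.

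Fosl1 (chr19:5447698-5455938) had 0.10 to 0.95 FPKM in Mettl3-ASO and 0.10 to 0.91 FPKM in ASO-Control libraries, with a median of 0.37 FPKM in Mettl3-ASO and 0.40 FPKM in ASO-Control (exact permutation p = 0.97). Its value is uncertain, because its annotation overlaps that of Ccdc85b and its expected counts were not whole in any of the 10 libraries. The counts of both genes add up to whole numbers in every library, between 24 and 203, so reads were shared out between them. Ccdc85b had 3.07, 0.88, 1.52, 1.61 and 1.16 FPKM in Mettl3-ASO replicates 1 to 5, against 0.67, 0.45, 0.29, 0.48 and 0.40 FPKM in ASO-Control replicates 1 to 5. These ranges did not overlap, a separation in that direction shown by 15.0% of tested genes.

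Taking the 8 immediate early members as a sum, the level was 49.6, 23.9, 26.0, 20.5 and 19.7 FPKM in Mettl3-ASO replicates 1 to 5, against 31.2, 31.6, 21.5, 23.6 and 21.04 FPKM in ASO-Control replicates 1 to 5. The groups overlapped, and most of the sum was Jund and Ier2. Without Jund and Ier2 the other 6 summed to 3.11 to 9.70 FPKM in Mettl3-ASO and 2.39 to 5.98 FPKM in ASO-Control libraries, with the untagged libraries highest.

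Among the 5 tested members, Mycn alone passed the test for a difference between batches. In batch 2 relative to the untagged libraries, Mycn fell by 1.35 on the log2 scale (SE 0.42; edgeR adjusted p = 0.045), where 6.44% of tested genes were lower and 9.22% higher in batch 2. The Mycn call was lost when any of 8 of the 10 libraries was left out, and its adjusted p was 0.20 without Mettl3-ASO replicate 1. Jun had a value of -0.98 ± 0.35 (SE; edgeR adjusted p = 0.071), Jund -0.28, Ier2 -0.12 and Myc 0.16. With no filter, Fos had -1.06 (edgeR adjusted p = 0.29) and Junb had -1.06 (edgeR adjusted p = 0.22). In all, 15.7% of tested genes differed between batches. For a difference between batches in the effect of the oligonucleotide, edgeR called 0 of 9522 genes (0.0%), with 159 (1.67%) at an unadjusted p under 0.05. DESeq2 called 1 gene (0.0105%), which was not a member.

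**Figure D3:**
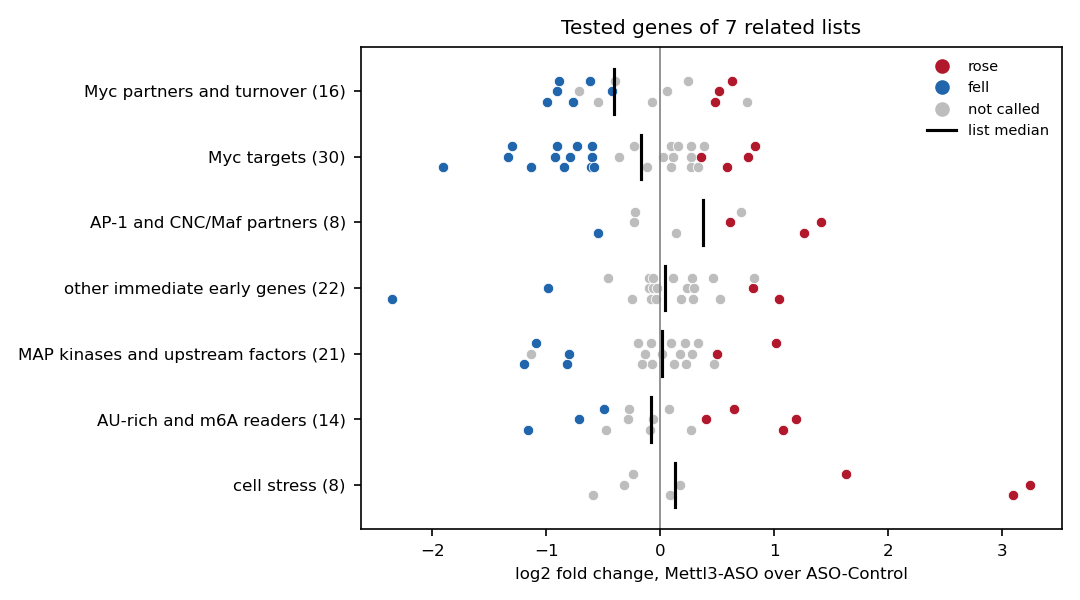
Log2 fold change of Mettl3-ASO over ASO-Control (horizontal axis) for the tested genes of 7 lists (number tested in brackets), red where the gene rose, blue where it fell and grey where it did not pass an edgeR adjusted p of 0.05; black bars are list medians. Blue points are most of the called genes in the lists of Myc partners (6 of 9) and Myc targets (13 of 17), and red points in the stress list (3 of 3).

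Genes that work with the members were read from 7 lists, each set beside the 49.4% called among all genes. The list of Myc partners and turnover factors had 16 tested genes of 21, of which 3 rose and 6 fell (56.2% called, median log2 fold change -0.41). The count that rose was 1 without Mettl3-ASO replicate 1 and 1 without ASO-Control replicate 2. Ruvbl2, an ATPase recruited by Myc, had 125 ± 21.3 FPKM in Mettl3-ASO and 225 ± 10.2 FPKM in ASO-Control libraries (SD, n = 5 each) and fell by 0.90 on the log2 scale (SE 0.11; edgeR adjusted p = 4.4e-05). Huwe1, a ubiquitin ligase that acts on Myc, fell by 0.99 (SE 0.17; edgeR adjusted p = 0.00049). Ruvbl2 is also part of chromatin complexes that work without Myc.

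Among textbook targets of Myc, more genes fell than rose. Of 30 tested genes of 32 listed, 4 rose and 13 fell (56.7% called, median log2 fold change -0.17). Odc1, the first enzyme of polyamine synthesis, had 181 ± 19.7 FPKM in Mettl3-ASO and 664 ± 77.4 FPKM in ASO-Control libraries (SD, n = 5 each) and fell by 1.91 on the log2 scale (SE 0.11; edgeR adjusted p = 1.5e-07). Srm, the spermidine synthase of that pathway, had 75.9 ± 26.7 FPKM in Mettl3-ASO and 183 ± 48.0 FPKM in ASO-Control libraries and fell by 1.33 (SE 0.17; edgeR adjusted p = 4.4e-05). Pa2g4, a growth-linked nucleolar protein, fell by 0.92 (SE 0.10; edgeR adjusted p = 2e-05). The count of targets that rose depended on the scaling and filter, at 7 with upper-quartile scaling, 7 by limma with a pseudocount of 1 and 8 among genes with a mean of at least 5 FPKM. The count that fell was between 11 and 15 under all 8 alternatives. Each of these genes answers to several factors, and Myc protein was not measured.

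Partners of AP-1 and of the small Maf proteins had 8 tested genes of 19, of which 3 rose and 1 fell (4 of 8 called, median log2 fold change 0.38). With no filter, 3 fell. Atf2, a bZIP factor that pairs with Jun, had 18.7 ± 6.55 FPKM in Mettl3-ASO and 7.57 ± 1.15 FPKM in ASO-Control libraries (SD, n = 5 each) and rose by 1.26 (SE 0.25; edgeR adjusted p = 0.0012). Of the factors that pair with small Maf proteins, Bach1, a repressor, rose by 0.62 (SE 0.17; edgeR adjusted p = 0.0091), and Nfe2l2, an activator, fell by 0.54 (SE 0.13; edgeR adjusted p = 0.0042). Singled out after their values were seen, Nfe2, the erythroid member of that family, rose by 1.41 (SE 0.47; edgeR adjusted p = 0.025), and Nfe2l1 had a log2 fold change of -0.22 ± 0.19 (SE; edgeR adjusted p = 0.37).

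Among other immediate early genes, 2 rose and 2 fell of 22 tested out of 31 listed (18.2% called, median log2 fold change 0.043). The count that rose was 5 with no filter and 1 without ASO-Control replicate 2. Klf6, a zinc finger factor, had 3.19 ± 2.63 FPKM in Mettl3-ASO and 14.8 ± 6.94 FPKM in ASO-Control libraries (SD, n = 5 each) and fell by 2.35 (SE 0.40; edgeR adjusted p = 0.0004). Klf10, induced by TGF-beta in many cells, fell by 0.99 (SE 0.24; edgeR adjusted p = 0.0049). Mcl1, a short-lived survival protein of the Bcl2 family, had 70.2 ± 8.37 FPKM in Mettl3-ASO and 33.5 ± 9.56 FPKM in ASO-Control libraries and rose by 1.04 (SE 0.14; edgeR adjusted p = 6.5e-05).

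MAP kinases and the factors upstream of immediate early genes had 21 tested genes of 26, with 2 up and 4 down (28.6%, median log2 fold change 0.014). The count up was 5 by limma with either pseudocount, and it was 1 with no filter. It was also 1 when any single library among Mettl3-ASO replicates 3 and 5 and ASO-Control replicates 1, 2 and 4 was left out. Atf1, a CREB family factor, had 122 ± 17.0 FPKM in Mettl3-ASO and 58.6 ± 3.96 FPKM in ASO-Control libraries (SD, n = 5 each) and rose by 1.02 (SE 0.12; edgeR adjusted p = 3.2e-05). Map2k4 and Map2k3, kinases that activate the JNK and p38 enzymes, fell by 1.09 (SE 0.16; edgeR adjusted p = 0.00012) and 1.19 (SE 0.19; edgeR adjusted p = 0.00027).

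Proteins that bind AU-rich or m6A-marked mRNA, tested in 14 of 15 cases, included 4 that rose and 3 that fell (7 of 14 called, median log2 fold change -0.078). Ythdf2, the reader that shortens the life of m6A-marked mRNA, had 84.3 ± 10.3 FPKM in Mettl3-ASO and 35.9 ± 3.48 FPKM in ASO-Control libraries (SD, n = 5 each) and rose by 1.19 (SE 0.12; edgeR adjusted p = 1.2e-05). Igf2bp3, a reader reported to stabilise Myc mRNA in human cells, fell by 1.16 (SE 0.20; edgeR adjusted p = 0.00042). Tia1, which binds AU-rich mRNA, rose by 1.07 (SE 0.23; edgeR adjusted p = 0.0023).

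Cell stress genes were given because stress induces many immediate early genes, and 3 rose while 5 did not pass among 8 tested of 10 (37.5% called, median log2 fold change 0.13). With a minimum of 5 FPKM 1 rose, and with the replicate block or without Mettl3-ASO replicate 2, 1 fell. Hspa1b, an inducible heat shock protein, had 12.8 ± 8.58 FPKM in Mettl3-ASO and 1.82 ± 1.43 FPKM in ASO-Control libraries (SD, n = 5 each) and rose by 3.09 (SE 0.43; edgeR adjusted p = 0.00011). Its near-identical neighbour Hspa1a rose by 3.25 (SE 0.52; edgeR adjusted p = 0.00029), and reads may have been split between them. Trib3, a gene of the amino acid and endoplasmic reticulum stress response, rose by 1.63 (SE 0.46; edgeR adjusted p = 0.011). The summed level of the 10 stress genes was 70.5 to 189 FPKM in Mettl3-ASO and 64.6 to 196 FPKM in ASO-Control libraries, and in both groups the untagged libraries were highest.

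The genes nearest to each tested member in pattern were found by the root mean square difference of centred log2 CPM over the 10 libraries. Nearest to Myc was Epm2aip1 at 0.14, where the median distance to all genes was 0.92, followed by Saysd1 at 0.22. Saysd1 had 11.3 ± 3.06 FPKM in Mettl3-ASO and 2.79 ± 0.833 FPKM in ASO-Control libraries (SD, n = 5 each). Nearest to Ier2 were Adam15 at 0.10 and Tuft1 at 0.15, with a median of 0.57 for all genes. Tuft1 had 8.14 ± 2.34 FPKM in Mettl3-ASO and 13.5 ± 2.31 FPKM in ASO-Control libraries. Nearest to Jund were Ak4 at 0.15 and Slc25a25 at 0.16, to Jun Alg1 at 0.27 and Pisd-ps1 at 0.27, and to Mycn Grb7 at 0.21 and Paqr4 at 0.24. All of these are distances over the same 10 libraries, which share their depth and batch, and are given as a description.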

How the data were processed

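RNA was measured in 10 libraries of polyadenylated RNA made with the SMART-Seq v4 PLUS kit, per the labels' protocols. The submitters' processing notes name STAR 2.7.10, RSEM 1.3.3 and build mm10. Neither use of strand nor the annotation release is given in the sources used here. The authors deposited expected counts, which are estimated reads per gene and need not be whole, and FPKM. TPM values that the authors deposited were not used. Groups came from the sample titles. Expected counts were rounded and tested with edgeR 4.0.16 in R 4.3.3 (TMM scaling, batch and group as terms, quasi-likelihood test) for genes with a mean of at least 1 FPKM, and adjusted p-values cover all 9522 tested genes. The script was tested on simulated data. SE is the absolute log2 fold change over the root of F. Libraries of one group and batch differed by more than sampling noise, with a lowest chi-square per degree of freedom of 19.6 over 8 pairs. Same-numbered libraries of both groups deviated together, with correlations of 0.105 to 0.273 over genes, equal by construction for the untagged numbers. Alternatives used DESeq2 1.42.0 and limma 3.58.1 on log2(FPKM + 1) or log2(FPKM + 0.1). Fragments carry no molecular identifiers; SEs and the intervals made from them include the spread between libraries. Members and lists were chosen with earlier results of these data known. Besides the members and Mettl3, the text names the 3 genes of lowest p per list and the 2 nearest in pattern to each tested member. A gene that this rule also names is not reported here.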

Additional observations from a re-analysis of the deposited data

Results flagged for a closer look

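In 3 of the 20 groups checked, which were the 10 members in each of the groups, a single library stood apart from the other 4 by more than Dixon's 95% limit, and each time it was replicate 1 of Mettl3-ASO. Chance flags about 1 in 20 groups of libraries that vary alike. Here each group held both batches, and the 3 cases share that library. How many of all genes this rule would flag was not counted. Jun had 3.43 FPKM in that library and 0.85 to 1.45 FPKM in the other 4. Jund had 31.45 FPKM there and 10.6 to 16.6 FPKM in the others. Mycn had 2.98 FPKM there and 0.26 to 0.95 FPKM in the others, and the untagged ASO-Control libraries had 2.28 and 2.05 FPKM. The summed level of the 10 morula markers was also highest in that library, at 921 FPKM against 363 to 438 FPKM in the other Mettl3-ASO libraries, and its part in these values was not tested. Between the groups, none of the 3 genes was called by edgeR with or without that library.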

How the results depend on the processing

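Myc (log2 fold change 1.53 to 1.78) and Ier2 (-0.84 to -0.67) kept direction and call under all 8 alternatives: DESeq2, upper-quartile scaling, no filter, a 5 FPKM minimum, limma with either pseudocount, no batch term, and the replicate block. Leaving out each library in turn gave 1.59 to 1.86 for Myc and -0.86 to -0.66 for Ier2. The replicate block gave 1.73 for Myc and -0.80 for Ier2 over all libraries. Within the untagged libraries, where the block leaves few degrees of freedom, it called 2 members instead of 0. Without the block, leaving out 1 untagged library left a lone library in a group, assumed to vary like the others, so calls are not given. The log2 fold change there was 1.35 to 2.12 for Myc, -1.46 to -0.68 for Ier2 and 0.18 to 1.05 for Jund. With the block, the Maff difference of 0.89 FPKM cannot pass the exact permutation test, since its smallest p is 0.0625. In the edgeR test with no filter, Maff kept its direction and call with the block (edgeR adjusted p = 0.0097). No other call on a member changed with the block. Paqr4 reversed with upper-quartile scaling (0.049), a scaling that moves the median of all genes to 0.072. Leaving out a library in turn gave mean differences of -0.39 to 0.028 FPKM for Fos, -0.22 to 0.19 for Fosl1, 0.32 to 0.54 for Junb, 0.062 to 0.14 for Egr1 and 0.60 to 1.28 for Maff. It turned the sign of uncalled log2 fold changes for Pisd-ps1 (-0.085 to 0.26), Grb7 (-0.41 to 0.044), Paqr4 (-0.14 to 0.11), Jund (-0.036 to 0.30) and Mycn (-0.65 to 0.17) in batch 2, Jun (-0.93 to 0.62) and Mycn (-1.42 to 0.31) in the untagged libraries, and Ier2 between batches (-0.28 to 0.0019). The cause of these changes was not tested. Ak4 was called but lost the call without any of 6 libraries (adjusted p up to 0.070 by edgeR). The low counts of Egr1, Maff, Fos and Fosl1 limit what their tests can show.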
